A study of Mus musculus with 8 samples.

Results

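Neutrophil marker genes were followed in isolated mouse proximal tubules after cisplatin. The markers were S100a8, S100a9, Retnlg, Csf3r, Mmp8, Mmp9 and Ngp, chosen by name, and all 7 had a row among the 21874 rows of the gene expression table through their Ensembl identifiers. The series measured linear and circular RNA in proximal tubules taken from the renal cortex of male C57BL/6 mice, with 2 libraries, a and b, in each of 4 groups. The groups were 0 h, for which no dose is listed, and 24, 48 and 72 h after an intraperitoneal injection of cisplatin at 30 mg/kg. Cisplatin is a platinum drug that injures proximal tubules, and the labels name no genetic change in any group. No source used here gives the age of the mice. The design text calls the duplicates biological and names no separate animals, so a p-value here reflects only the scatter of these libraries, which may be technical.

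Neutrophils are short-lived granulocytes that are made in the bone marrow and enter injured tissue early. They carry preformed granules, whose proteins are largely made while the cell matures in the marrow, and a cytosol rich in calprotectin, the complex of the S100a8 and S100a9 proteins. In the kidney, neutrophils gather in the capillaries and interstitium around injured tubules. The values are those of bulk RNA, in which more cells of a type and more RNA per cell cannot be told apart.

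Values are FPKM, fragments per kilobase of transcript scaled to the mapped depth, so that levels of different genes can be set side by side. FPKM gives no count, so the depth behind each value is unknown and no counting interval is given. Tests were made with limma on log2(FPKM + 1), a scale on which changes of genes near 0 come out smaller than their ratios. The test covered the 10757 rows that reached 1 FPKM in 2 or more libraries, with a Benjamini-Hochberg adjusted p under 0.05 as the threshold for a call. Of the 7 markers 5 entered this test, each through libraries taken after cisplatin and none through those of 0 h. Their calls against 0 h carry that selection. Csf3r and Mmp8 entered through the 72 h libraries alone, so their calls at 72 h against 24 and 48 h carry it too. Mmp9 and Ngp did not enter the test.

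The labelled tissue was present in all libraries. Proximal tubule genes were at a summed level of 4086 to 4477 FPKM over 9 rows at 0 h, 1446 to 1728 at 24 h, 932 to 1008 at 48 h and 385 to 400 at 72 h, and all 10 tested genes of that list were called lower at each time. The total FPKM of a library ran from 314173 to 452114. The number of rows above 0 was highest at 48 h, with 17704 and 17656 rows in libraries a and b. Olfactory and vomeronasal receptor rows serve here as a comparison set, without the assumption that tubules make none of them. Of 1323 such rows 34 and 38 were above 0 before cisplatin, and 71 and 91 in the 24 h libraries. In the 48 h libraries 351 and 313 receptor rows were above 0, and in the 72 h libraries 101 and 90 receptor rows. Their 99th percentile lay at 0.0795 and 0.0874 FPKM at 0 h, 0.199 and 0.222 FPKM at 24 h, 0.212 and 0.224 FPKM at 48 h, and 0.112 and 0.103 FPKM at 72 h. This percentile is the level against which the lowest marker values can be read. It is not a clean floor, since the highest receptor row of a library was at 4.30 to 6.65 FPKM.

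S100a8 and S100a9, the calprotectin subunits, were the most abundant markers and were called higher than at 0 h in each group after cisplatin. Their 48 h and 24 h levels did not differ past the threshold, and their 72 h levels were above both. They lie near each other on chromosome 3 of mm10. The S100a8 row spans 90669018 to 90670326 on the plus strand and the S100a9 row 90692484 to 90695744 on the minus strand. Their gene spans in RefSeq, 22595 bases apart, point toward each other. Both rows lie inside the span of a row named Npr1, which covers 4781537 bases. Promoter windows of 250 bases before to 50 bases after the start were matched in RefSeq, build GRCm38.p6, for 6 of the 7 markers, all but Mmp9. They are shown for the calprotectin pair, because these genes had the most similar profiles, and for Mmp8 and Ngp, granule genes on chromosome 9 whose profiles differed. Capitals mark matches to letters known from binding motifs, searched on both strands.
S100a8, chr3:90668821-90669120, plus strand: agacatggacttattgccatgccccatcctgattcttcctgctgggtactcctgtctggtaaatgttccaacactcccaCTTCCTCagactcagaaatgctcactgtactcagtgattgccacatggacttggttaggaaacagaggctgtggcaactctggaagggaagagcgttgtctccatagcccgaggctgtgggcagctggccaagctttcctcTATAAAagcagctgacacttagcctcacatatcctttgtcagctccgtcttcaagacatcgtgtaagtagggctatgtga
S100a9, chr3:90695672-90695971, minus strand: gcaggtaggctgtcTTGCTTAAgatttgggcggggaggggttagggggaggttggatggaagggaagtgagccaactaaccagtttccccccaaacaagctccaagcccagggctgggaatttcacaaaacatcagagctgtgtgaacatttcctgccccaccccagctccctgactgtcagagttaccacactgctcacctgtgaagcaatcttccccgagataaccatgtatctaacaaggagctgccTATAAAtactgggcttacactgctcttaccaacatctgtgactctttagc
Mmp8, chr9:7558179-7558478, plus strand: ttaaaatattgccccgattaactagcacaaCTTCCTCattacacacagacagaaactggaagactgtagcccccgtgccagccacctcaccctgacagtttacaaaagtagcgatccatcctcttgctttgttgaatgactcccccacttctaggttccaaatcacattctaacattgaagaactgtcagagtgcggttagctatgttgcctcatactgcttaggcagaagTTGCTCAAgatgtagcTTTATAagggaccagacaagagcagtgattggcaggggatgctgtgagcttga
Ngp, chr9:110419558-110419857, plus strand: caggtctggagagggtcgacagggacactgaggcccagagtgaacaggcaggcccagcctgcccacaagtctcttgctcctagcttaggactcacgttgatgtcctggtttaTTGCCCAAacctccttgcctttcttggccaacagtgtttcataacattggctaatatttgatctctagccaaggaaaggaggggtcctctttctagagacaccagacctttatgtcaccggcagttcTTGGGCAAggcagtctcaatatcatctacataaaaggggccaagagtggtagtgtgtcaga

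The letters searched were TTGCNNAA for C/EBP factors, GAGGAAG for PU.1, TGANTCA for AP-1, TTCNNNGAA for STAT factors and TATAAA for the TATA box. Both C/EBP factors and PU.1 are needed for neutrophil development. Of 32851 RefSeq promoter windows of the same length, 10.8% held the C/EBP letters, 13.6% those of PU.1, 7.81% those of AP-1, 8.30% those of STAT and 13.6% TATAAA. In the S100a8 window the PU.1 letters occurred on the minus strand from base -171 and TATAAA from base -30, counted from the start site. In the S100a9 window the C/EBP letters occurred from base -236 and TATAAA from base 1. The Mmp8 window held the C/EBP letters from base -19, those of PU.1 on the minus strand from base -220 and TATAAA on the minus strand from base -3. The Ngp window held the C/EBP letters from base -138 and, on the minus strand, from base -11. In the windows not printed, Retnlg held the C/EBP letters on the minus strand from base -246 and Csf3r held the PU.1 letters from base -86. The AP-1 and STAT letters were not in any of the 6 windows. No match overlapped another. These matches describe the letters in the windows and not binding.

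In libraries a and b, S100a8 was at 0.317 and 0.549 FPKM at 0 h, 13.03 and 13.83 FPKM at 24 h, 11.1 and 14.2 FPKM at 48 h, and 32.8 and 30.9 FPKM at 72 h. Both libraries of every later time lay far above both at 0 h, and the 24 h and 48 h libraries overlapped. Its log2 fold change over 0 h was 3.34 at 24 h, 3.25 at 48 h and 4.52 at 72 h, each with a standard error of 0.12 (limma adjusted p = 1.85e-07, 7.52e-08 and 7.54e-09). As a ratio of mean FPKM this was 31.0, 29.2 and 73.6. Between 48 h and 24 h the difference was -0.09 and did not pass the test (limma adjusted p = 0.635).

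S100a9 was at 0.387 and 0.367 FPKM at 0 h, 9.85 and 8.89 FPKM at 24 h, 7.46 and 8.48 FPKM at 48 h, and 19.5 and 17.7 FPKM at 72 h. Both 48 h libraries were just below both 24 h libraries, and those of 72 h were above all others. The log2 fold change over 0 h was 2.91 at 24 h, 2.70 at 48 h and 3.83 at 72 h, each with a standard error of 0.10 (limma adjusted p = 1.04e-07, 5.69e-08 and 4.85e-09). The ratios of mean FPKM were 24.9, 21.2 and 49.4. The 48 h level differed from that at 24 h by -0.21, which did not pass the test (limma adjusted p = 0.144).

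The pair rose together over 0 h, but the ratio between them varied among libraries. The ratio of S100a8 to S100a9 in FPKM was 0.820 and 1.495 in the 0 h libraries, 1.32 and 1.56 in the 24 h libraries, 1.49 and 1.67 in those of 48 h, and 1.68 and 1.75 in those of 72 h. Together they made up 68.8% and 75.3% of the summed FPKM of the 7 markers in the 0 h libraries, 83.8% and 87.7% in the 24 h libraries, 77.0% and 77.9% in those of 48 h, and 78.4% and 75.6% in those of 72 h. The sum itself was 1.02 and 1.22 FPKM at 0 h, 27.3 and 25.9 FPKM at 24 h, 24.1 and 29.1 FPKM at 48 h, and 66.7 and 64.3 FPKM at 72 h. Both calprotectin genes are also expressed by monocytes, so they do not mark neutrophils alone.

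**Figure D1:**
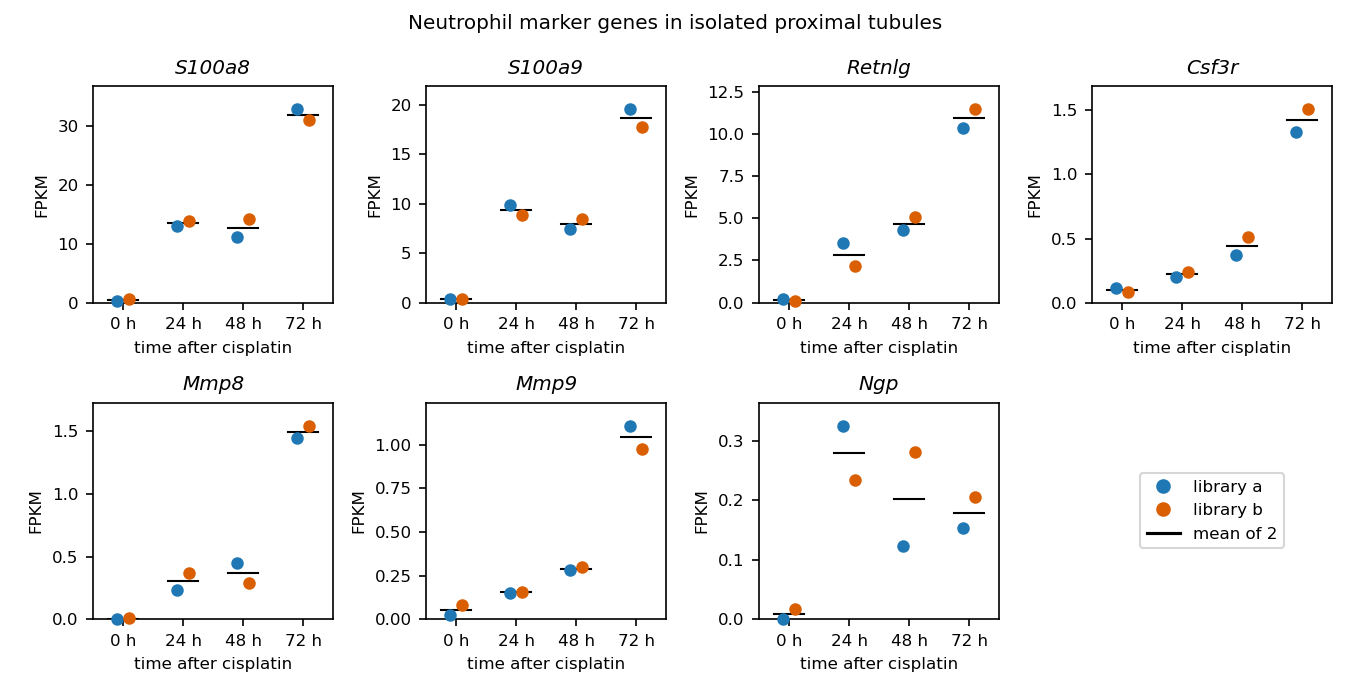
FPKM of each of the 7 markers (vertical axis, linear, own scale in each panel) against time after cisplatin, with a point for each library and a line at the mean of 2. In 6 panels the 72 h libraries are the highest, and in the Ngp panel the highest library is one of 24 h, at 0.325 FPKM.

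Retnlg, which encodes a resistin-like secreted protein found in mouse bone marrow and neutrophils, rose at every step. Its row lies on chromosome 16 at 48872310 to 48874498, plus strand. It was at 0.184 and 0.115 FPKM at 0 h, 3.504 and 2.185 FPKM at 24 h, 4.31 and 5.06 FPKM at 48 h, and 10.4 and 11.5 FPKM at 72 h. No group overlapped another. The log2 fold change over 0 h was 1.72 at 24 h, 2.30 at 48 h and 3.37 at 72 h, each with a standard error of 0.16 (limma adjusted p = 1.74e-05, 1.91e-06 and 1.53e-07). Retnlg was the single marker that differed between 48 h and 24 h, by 0.58 (limma adjusted p = 0.0249). That call was lost in 5 of the alternatives: without 24 h library b, 48 h library a or 48 h library b the adjusted p was 0.0932, 0.0575 or 0.139, with no filter on low values it was 0.0768, and with these groups alone it was 0.0691. The related genes Retnla and Retnlb were listed at 0 in all 8 libraries.

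Csf3r encodes the receptor for granulocyte colony-stimulating factor, which drives the making and survival of neutrophils. Its row lies on chromosome 4 at 126023348 to 126044555, plus strand, and overlaps the long non-coding gene Gm32908 in RefSeq. Csf3r was at 0.111 and 0.0815 FPKM at 0 h, 0.202 and 0.237 FPKM at 24 h, 0.368 and 0.510 FPKM at 48 h, and 1.34 and 1.51 FPKM at 72 h. The groups followed each other in time without overlap. At 24 h the log2 fold change over 0 h was 0.15 and did not pass the test (limma adjusted p = 0.199). The 24 h values lay just above the 99th percentile of the olfactory and vomeronasal receptor rows of the same libraries, 0.199 and 0.222 FPKM, which was itself higher than at 0 h, and the ratio of mean FPKM was 2.28. With a pseudocount of 0.1 in place of 1 it was 0.71 and passed (limma adjusted p = 0.0412). It rose by 0.39 at 48 h (limma adjusted p = 0.00612) and by 1.14 at 72 h (limma adjusted p = 7.59e-06), each with a standard error of 0.10, and the ratios of mean FPKM were 4.57 and 14.8. With quantile normalisation the 48 h value was 0.05 and did not pass (limma adjusted p = 0.673). The ligand gene, Csf3, was listed at 0 in both 0 h libraries and stood at 0.0253 and 0.0599 FPKM at 24 h, 0.322 and 0.150 FPKM at 48 h, and 0.605 and 0.699 FPKM at 72 h, too low to enter the test.

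The metalloproteinases Mmp8 and Mmp9 are stored in neutrophil granules and cut extracellular matrix. Mmp8, neutrophil collagenase, lies on chromosome 9 at 7558429 to 7568486, plus strand, and overlaps the long non-coding gene Gm31751 in RefSeq. It was listed at 0 in 0 h library a and at 0.00826 FPKM in library b, and stood at 0.235 and 0.371 FPKM at 24 h, 0.445 and 0.286 FPKM at 48 h, and 1.45 and 1.55 FPKM at 72 h. The 24 h and 48 h libraries overlapped, and the 72 h libraries were above all others. It rose over 0 h by 0.37 at 24 h, 0.44 at 48 h and 1.31 at 72 h on the log2 scale, each with a standard error of 0.10 (limma adjusted p = 0.0113, 0.00434 and 4.4e-06). The 24 h call was lost without 0 h library a or 24 h library b (limma adjusted p = 0.0525 and 0.0627), and with quantile normalisation neither the 24 h value of 0.24 nor the 48 h value of 0.21 passed (limma adjusted p = 0.0923 and 0.125).

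Mmp9, gelatinase B, lies on chromosome 2 at 164940780 to 164955850, plus strand, and is also made by macrophages. It was at 0.0249 and 0.0800 FPKM at 0 h, 0.150 and 0.156 FPKM at 24 h, 0.284 and 0.296 FPKM at 48 h, and 1.11 and 0.976 FPKM at 72 h. The groups did not overlap. Mmp9 entered a test when the filter was lowered to 0.1 FPKM in at least 2 libraries, which let in 14541 rows. There, too, it entered through libraries taken after cisplatin, as did Ngp, so that their calls against 0 h carry the same selection. Its log2 fold change over 0 h was 0.13 at 24 h, 0.29 at 48 h and 0.96 at 72 h, each with a standard error of 0.07 (limma adjusted p = 0.155, 0.00781 and 1.31e-05). The ratios of mean FPKM at 48 and 72 h were 5.53 and 19.9. The values of both 0 h and both 24 h libraries were below the 99th percentile of the olfactory and vomeronasal receptor rows of the same library, and those of 48 and 72 h above it.

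Ngp, neutrophilic granule protein, is a granule protein made by maturing neutrophils in the marrow, and its levels took another course from those of the other 6 markers. Its row lies on chromosome 9 at 110419808 to 110423010, plus strand. Ngp was listed at 0 in 0 h library a and at 0.0163 FPKM in library b, and stood at 0.325 and 0.234 FPKM at 24 h, 0.123 and 0.282 FPKM at 48 h, and 0.153 and 0.206 FPKM at 72 h. It had its highest mean at 24 h, 0.280 ± 0.065 FPKM, against 0.202 ± 0.113 at 48 h and 0.179 ± 0.037 at 72 h (SD, n = 2 each). The 24 h and 48 h libraries overlapped, as did those of 48 h and 72 h. With the filter at 0.1 FPKM its log2 fold change over 0 h was 0.34 at 24 h, 0.25 at 48 h and 0.23 at 72 h, each with a standard error of 0.08 (limma adjusted p = 0.00827, 0.0291 and 0.0429). Its difference between 72 h and 24 h was -0.12 and did not pass (limma adjusted p = 0.275). Against the 99th percentile of the olfactory and vomeronasal receptor rows of the same library, Ngp was higher in 5 of the 6 libraries after cisplatin and lower in 48 h library a, at 0.123 against 0.212 FPKM. Both 0 h values were below it.

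Over the markers as a group, all 7 had both libraries above both 0 h libraries at 24, 48 and 72 h. Of 19299 rows above 0 in any library, 29.1% did so at 24 h, 36.6% at 48 h and 40.4% at 72 h. Of the 5 tested markers 4 were called higher at 24 h, where 25.8% of all tested rows were called higher and 40.0% lower. All 5 were called higher at 48 h, against 28.5% of tested rows called higher and 42.1% lower, and all 5 at 72 h, against 37.6% higher and 32.4% lower. With the filter at 0.1 FPKM, Ngp was called at 24 h, where 21.6% of rows were called higher, and both Ngp and Mmp9 at 48 h, where 25.4% were, and at 72 h, where 33.3% were. The median log2 fold change of the 5 tested markers was 1.72 at 24 h, 2.30 at 48 h and 3.37 at 72 h, and that of all tested rows -0.12, -0.13 and 0.07.

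**Figure D2:**
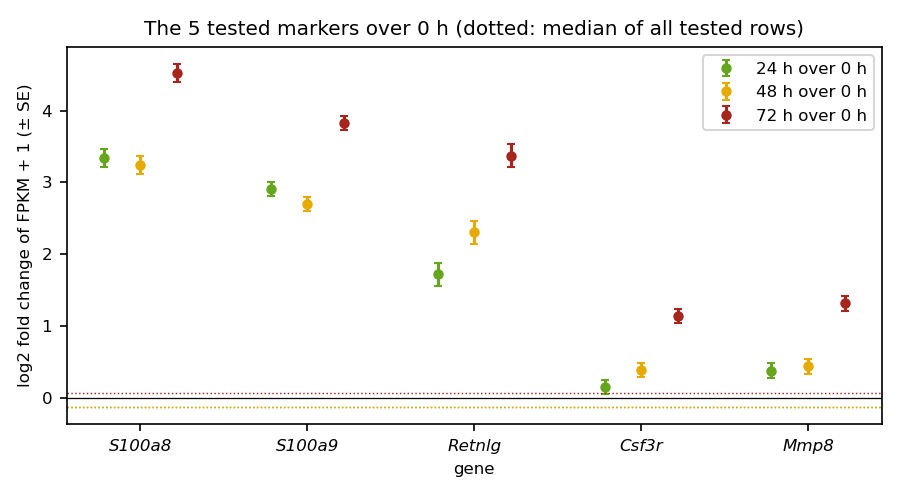
Log2 fold change of FPKM + 1 over 0 h (vertical axis, with bars of 1 standard error from limma) for the 5 tested markers at 24, 48 and 72 h, with a dotted line at the median of all tested rows at each time. S100a8, S100a9 and Retnlg are at 1.72 or more at all 3 times, and Csf3r and Mmp8 pass 1 at 72 h.

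The markers' levels at 24 and 48 h can be set as shares of their levels at 72 h. At 24 h the mean of S100a9 was 50.4% of its own 72 h mean and that of S100a8 42.2%, whereas Retnlg was at 26.1%, Mmp8 at 20.2%, Csf3r at 15.4% and Mmp9 at 14.7%. Ngp was at 156%. At 48 h the same shares were 42.8% for S100a9, 39.7% for S100a8, 42.9% for Retnlg, 24.4% for Mmp8, 30.9% for Csf3r, 27.8% for Mmp9 and 113% for Ngp. These shares were not tested between markers. Between 48 h and 24 h, 1 of the 5 tested markers, Retnlg, was called higher, where 11.2% of tested rows were.

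**Figure D3:**
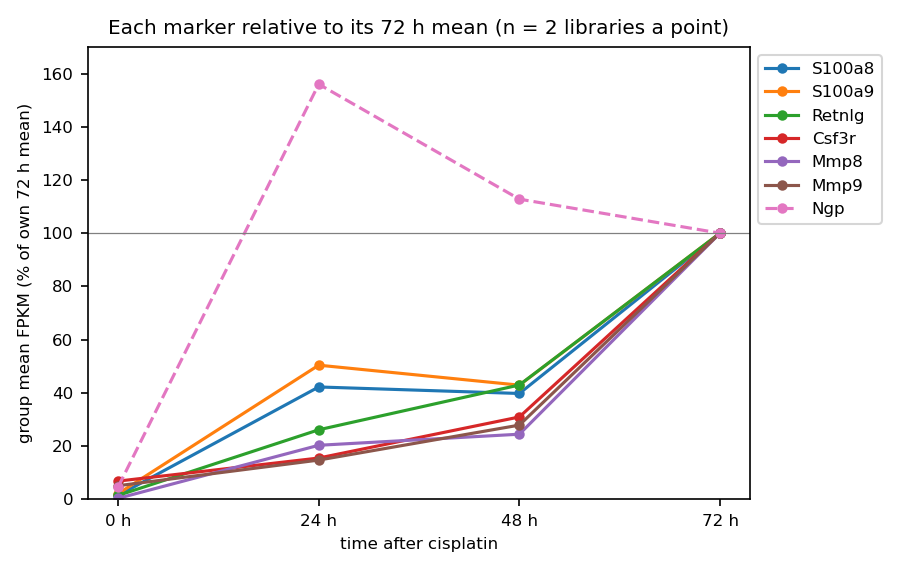
Group mean FPKM of each marker as a percentage of its own 72 h mean (vertical axis) at 0, 24, 48 and 72 h, with each point the mean of 2 libraries. The lines of S100a8 and S100a9 stand at 39.7% to 50.4% at 24 and 48 h, and the dashed line of Ngp is at 156% at 24 h.

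All 5 tested markers were called higher at 72 h than at 48 h and 24 h. Csf3r and Mmp8 reached 1 FPKM only in the 72 h libraries, so for these genes both calls carry the selection by the filter. Against 48 h, the log2 difference was 1.28 for S100a8, 1.13 for S100a9, 1.07 for Retnlg, 0.75 for Csf3r and 0.87 for Mmp8, with limma adjusted p from 4.73e-05 to 0.00075, and 37.2% of all tested rows were called higher. Against 24 h, it was 1.19 for S100a8, 0.92 for S100a9, 1.65 for Retnlg, 0.99 for Csf3r and 0.94 for Mmp8, with limma adjusted p from 3.35e-05 to 7.91e-05, and 37.7% of all tested rows were called higher. On the ratio of mean FPKM the order was another: 72 h was 6.48 times 24 h for Csf3r, 4.94 times for Mmp8, 3.84 times for Retnlg, 2.37 times for S100a8 and 1.99 times for S100a9. Mmp9, in the test with the lower filter, rose over 24 h by 0.82 (limma adjusted p = 7e-05), where 31.4% of rows were called higher. The median of all tested rows was itself 0.18 above 48 h and 0.14 above 24 h, and of all calls 76.7% were higher against 48 h and 65.6% against 24 h. With each library set to the same median, those shares were 46.3% and 45.5%, and with quantile normalisation 49.6% and 49.1%, and all 5 markers remained called higher in both.

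Profiles across the 8 libraries were compared by Pearson's r of log2(FPKM + 1), as a description over points that share libraries and groups. S100a8 and S100a9 had r = 0.998, Csf3r and Mmp9 0.986, Mmp8 and Mmp9 0.976, and Csf3r and Mmp8 0.970. Between the calprotectin pair and Csf3r, Mmp8 or Mmp9 r was lower, from 0.750 for S100a9 and Mmp9 to 0.826 for S100a8 and Mmp8. Retnlg belonged to neither set alone, with r of 0.959 with S100a8 and 0.955 with S100a9. Its r was 0.878 with Csf3r, 0.893 with Mmp8 and 0.865 with Mmp9. Ngp had r of 0.770 with S100a8, 0.778 with S100a9, 0.288 with Csf3r and 0.250 with Mmp9. The tested genes most like the mean profile of the 5 tested markers were Rgcc, a cell cycle regulator induced by complement, Ccl9, a chemokine of myeloid cells, Plin2, a lipid droplet coat protein, and Ms4a6b, each with r = 0.998. They were followed by Ercc1, a DNA repair endonuclease subunit, Muc1, an epithelial mucin, and the rows of Rps18 and Oas1a, which also span B3galt4 and Oas1g, each with r = 0.997. Edn1, which encodes endothelin, was most like S100a8 and Rps4x, a ribosomal protein gene, most like S100a9, each with r = 0.997, and Ifngr1, an interferon gamma receptor chain, was most like Csf3r with r = 0.994. High values were common, since 532 of 10286 candidate rows had r of at least 0.95 with the mean profile.

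Other neutrophil genes were taken from lists of surface, granule and effector genes. Of 55 genes besides the markers 52 had a row and 31 were tested. At 24 h 14 were called higher and 3 lower, at 48 h 23 and 3, and at 72 h 28 and 3. Of all tested rows 25.8%, 28.5% and 37.6% were called higher at 24, 48 and 72 h, and 40.0%, 42.1% and 32.4% lower. The counts of each list below are to be read beside these shares. Their median log2 fold changes at the 3 times were 0.30, 0.65 and 1.65, beside -0.12, -0.13 and 0.07 for all tested rows. At 72 h the 3 called lower were Cyba, Ncf1 and Cd63, named here after their values were seen. The row of Cyba also spans Il17c, and that of Ncf1 reaches past its gene or lies nested with another.

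Of 15 tested surface and receptor genes 9 were called higher at 24 h, 11 at 48 h and 15 at 72 h, and none was called lower. Il1r2, the decoy receptor of interleukin-1, was at 0.0398 and 0.0958 FPKM at 0 h, 0.961 and 1.21 FPKM at 24 h, 2.68 and 3.33 FPKM at 48 h, and 11.4 and 11.3 FPKM at 72 h, a log2 fold change of 3.53 at 72 h (limma adjusted p = 1.7e-08). Itgam, the alpha chain of the Mac-1 integrin of neutrophils and macrophages, rose by 3.14 at 72 h (limma adjusted p = 1.7e-08). C5ar1, the receptor of complement C5a, rose by 2.20, and Trem3, a receptor of myeloid cells, by 1.83. The rows of Il1r2, Itgam and Trem3 reach past their gene or lie nested with another. Ly6g, the antigen most used to stain mouse neutrophils, was listed at 0 in both 0 h libraries and stood at 0.378 and 0.0640 FPKM at 24 h, 0.150 and 0.276 FPKM at 48 h, and 0.224 and 0.321 FPKM at 72 h, which did not enter the test. Its row lies inside that of Ly6c2, a related antigen of monocytes, which also spans other Ly6 genes.

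Genes of neutrophil precursors were low in all libraries. Over 10 rows of such genes, Ngp included, the summed level was 0.148 to 0.240 FPKM at 0 h, 0.598 to 0.788 at 24 h, 0.782 to 0.801 at 48 h and 0.728 to 0.972 at 72 h. No single row passed 0.383 FPKM in any library and none entered the test. Elane, neutrophil elastase of the primary granules, was listed at 0 in all libraries but those of 24 h, where it was at 0.179 and 0.0237 FPKM. Mpo, myeloperoxidase, was listed at 0 in 4 of the 8 libraries and reached 0.0340 FPKM in 72 h library b. Camp, the cathelicidin of the secondary granules, was listed at 0 in both 0 h libraries and did not pass 0.0847 FPKM.

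Of the other granule genes 5 were tested, with 2 called higher and 1 lower at 24 h, 3 higher and 1 lower at 48 h, and 4 higher and 1 lower at 72 h. Lyz2, lysozyme of neutrophils and macrophages, was at 19.5 and 13.8 FPKM at 0 h and between 14.5 and 15.5 at 24 and 48 h, then at 78.9 and 79.5 FPKM at 72 h, a log2 fold change over 0 h of 2.20 (limma adjusted p = 8.91e-07). Wfdc21, a small secreted protein with a protease inhibitor fold, was listed at 0 in both 0 h libraries and at 3.999 and 3.395 FPKM at 72 h. The row of Chil3, a chitinase-like protein of myeloid cells, also spans Chil4, and it is named here after its values were seen. It was at 0.119 and 0.144 FPKM at 0 h, 2.28 and 2.05 FPKM at 24 h, 4.19 and 4.39 FPKM at 48 h, and 48.8 and 52.0 FPKM at 72 h, a log2 fold change of 5.51 at 72 h (limma adjusted p = 6.17e-10), the point farthest above the line of equal levels in the plot of gene groups. Stfa2l1, a stefin with near-identical copies, was at 2.22 and 1.64 FPKM at 72 h and listed at 0 in both 0 h libraries, and its share of the copies' fragments is uncertain. Cd63, a granule and lysosome membrane protein that many cells express, was at 401 and 433 FPKM at 72 h, against 616 and 641 at 0 h, and fell by 0.59 on the log2 scale (limma adjusted p = 0.000145).

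Of 11 tested effector genes 3 were called higher and 2 lower at 24 h, and 9 higher and 2 lower at 48 and 72 h. The share called higher at 24 h was near the 25.8% of all tested rows. Slpi, an inhibitor of elastase, was at 0.128 and 0.0700 FPKM at 0 h, 0.374 and 0.167 FPKM at 24 h, 3.81 and 2.81 FPKM at 48 h, and 13.1 and 14.5 FPKM at 72 h. It rose by 1.96 at 48 h and by 3.75 at 72 h (limma adjusted p = 2.21e-06 and 3.6e-08). Hp, haptoglobin, rose by 1.10 at 24 h, 1.04 at 48 h and 2.74 at 72 h. Alox5ap, needed for leukotriene synthesis, rose by 2.22 at 72 h. The rows of Slpi, Hp and Alox5ap reach past their gene or lie nested with another, and Hp and Slpi are also made by epithelia.

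**Figure D4:**
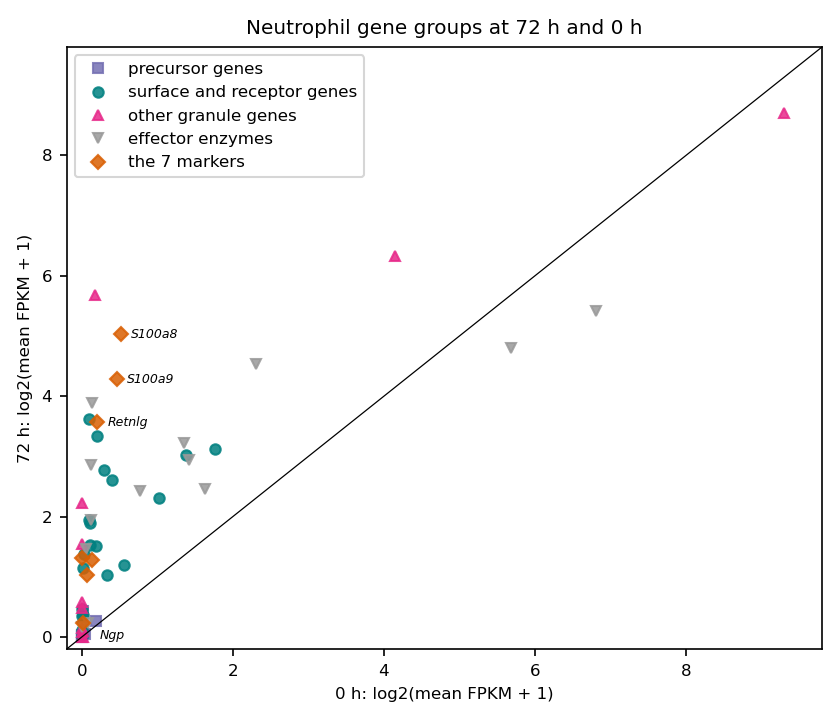
Mean level of each neutrophil gene at 72 h (vertical axis) against its level at 0 h (horizontal axis), both as log2(mean FPKM + 1) with a line of equal levels, and a symbol for each group of genes. S100a8, S100a9 and Retnlg are among the genes farthest above the line, and the precursor genes and Ngp sit near the origin, at most at 0.383 FPKM in any library.

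Genes that act on neutrophils were also followed. Of 7 tested attractants, growth factors and cytokines 3 were called higher and 1 lower at 24 h, 5 higher at 48 h and 6 at 72 h, and none lower at 48 or 72 h. Cxcl2, a ligand of the neutrophil receptor Cxcr2, was at 0.0643 and 0.0886 FPKM at 0 h, 1.63 and 1.66 FPKM at 24 h, 3.98 and 4.26 FPKM at 48 h, and 8.73 and 9.17 FPKM at 72 h. Its log2 fold change over 0 h was 1.30, 2.25 and 3.21 (limma adjusted p = 3.96e-06, 9.82e-08 and 8.8e-09). Il1b rose by 1.13 at 24 h, 2.53 at 48 h and 3.66 at 72 h, and Il6 by 0.99, 1.40 and 1.49. C3, the central complement component, was called at 48 h, at 0.82, and at 72 h, at 3.49 (limma adjusted p = 0.000389 and 3.9e-08). Cxcl5, another Cxcr2 ligand, was listed at 0 in both 0 h libraries and reached 0.584 and 0.641 FPKM at 72 h.

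Of 6 tested endothelial adhesion genes for leukocytes 5 were called higher and 1 lower at 24 and 72 h, and 4 higher and 1 lower at 48 h. Sele, E-selectin, which lets neutrophils roll on activated endothelium, was highest at 48 h, with 0.0488 and 0.0630 FPKM at 0 h, 0.712 and 0.506 FPKM at 24 h, 1.93 and 1.57 FPKM at 48 h, and 0.791 and 1.04 FPKM at 72 h. Its level at 72 h was lower than at 48 h by a log2 difference of -0.52 (limma adjusted p = 0.00649), while the 5 tested markers were higher. Vcam1 rose by 1.59, Cd34 by 1.69 and Pecam1 by 1.24 at 72 h, the last with a row that reaches past its gene or lies nested with another.

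Of 6 tested calprotectin receptor genes 4 were called higher and 2 lower at 24 and 48 h, and 3 higher and 2 lower at 72 h. Tlr4, the toll-like receptor that calprotectin activates, rose by 1.74 at 24 h, 1.90 at 48 h and 2.38 at 72 h (limma adjusted p = 2.56e-06, 8.11e-07 and 1.64e-07), with a row that reaches past its gene or lies nested with another. Its co-receptor Cd14 rose by 1.22, 1.82 and 2.19. Cd36, a scavenger receptor abundant in tubules, was at 55.5 and 49.7 FPKM at 72 h, against 137 and 167 at 0 h, and fell by 1.51 on the log2 scale (limma adjusted p = 2.16e-06).

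The markers' own gene families moved in part with them. Of 13 tested metalloproteinases and their inhibitors 6 were called higher and 2 lower at 24 h, 8 higher and 2 lower at 48 h, and 11 higher and 1 lower at 72 h. Timp1, an inhibitor of Mmp9 among others, was at 0.422 and 0.312 FPKM at 0 h, 8.81 and 9.16 FPKM at 24 h, 13.2 and 11.7 FPKM at 48 h, and 43.3 and 43.9 FPKM at 72 h. It rose by 5.03 at 72 h (limma adjusted p = 1.25e-09), and its level in FPKM was above those of Mmp8 and Mmp9 in every library. Mmp14 rose by 1.80 and Mmp3 by 1.22 at 72 h, and Timp3 fell by 1.36 on the log2 scale. The rows of Timp1 and Timp3 reach past their gene or lie nested with another. Of 8 tested S100 genes besides the pair 6 were called higher at each time, with 2 lower at 24 and 48 h and 1 at 72 h. S100a10, the annexin partner of epithelia, rose by 3.07 and S100a11 by 2.70 at 72 h, and S100g, the calcium carrier of renal tubules, fell by 2.19. The rows of S100a10 and S100g reach past their gene or lie nested with another. At 72 h S100a8 stood at 32.8 and 30.9 FPKM, against 580 and 595 FPKM for S100a10 in the same libraries.

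Genes of transcription factors that neutrophils use were called higher for 4 of 7 at 24 h, 5 at 48 h and 6 at 72 h. Cebpb, a C/EBP factor of inflammation, rose by 2.02 at 24 h, 1.85 at 48 h and 2.96 at 72 h (limma adjusted p = 5.18e-07, 3.55e-07 and 1.66e-08), and Stat3 rose by 0.50, 0.61 and 1.30.

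Markers of other leukocytes were read beside these values. Of 10 tested macrophage and monocyte genes 4 were called higher and 2 lower at 24 h. At 48 h 6 were called higher and 2 lower, and at 72 h 10 higher. Beside them, 25.8%, 28.5% and 37.6% of all tested rows were called higher at 24, 48 and 72 h. The median log2 fold changes of these macrophage and monocyte genes were 0.09, 0.42 and 1.21. Their summed level was 28.5 to 28.8 FPKM at 0 h, 32.3 to 42.0 at 24 h, 41.6 to 43.0 at 48 h and 78.2 to 82.0 at 72 h. Both this sum and the summed level of the neutrophil markers were highest at 72 h, although Ngp was not, and the part of monocytes in the levels of S100a8, S100a9, Csf3r and Mmp9 was not tested. Fcgr1 rose by 0.78 at 24 h, 0.63 at 48 h and 1.48 at 72 h, and Mrc1 by 0.82, 0.88 and 1.37. Ccr2, the chemokine receptor of inflammatory monocytes, was not called at 24 or 48 h, at -0.01 and -0.07 (limma adjusted p = 0.946 and 0.644), and rose by 1.36 at 72 h (limma adjusted p = 2.01e-05), with a row that reaches past its gene or lies nested with another. Of 9 tested pan-leukocyte genes 3 were called higher and 1 lower at 24 h, 4 higher at 48 h and 9 at 72 h. Their median log2 fold changes were 0.08, 0.22 and 1.69.

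Few lymphocyte rows were high enough to be tested. The summed level of 12 T and NK cell rows was 3.33 to 3.89 FPKM at 0 h, 1.75 to 2.17 at 24 h, 2.50 to 2.73 at 48 h and 3.50 to 3.90 at 72 h. That of 6 B cell rows was 2.14 to 2.28, 0.843 to 1.21, 0.944 to 1.16 and 1.89 to 2.02 FPKM at the same times. The single tested T and NK cell gene was called higher at 72 h against 24 h and in none of the contrasts with 0 h. Of the 2 tested B cell genes both were called higher at 72 h against 24 h and against 48 h, and against 0 h 1 was called higher and 1 lower at 24 and 48 h and 1 higher at 72 h. The row of one of them, Cd79a, also spans many other genes and was left out of the sum. Mast cell, basophil and eosinophil rows summed to at most 0.371 FPKM in any library, with Mcpt4, Mcpt8 and Tpsb2 among those listed at 0. Red cell and platelet rows summed to 12.3 to 13.3 FPKM at 0 h, 4.43 to 5.03 at 24 h, 4.46 to 4.61 at 48 h and 6.16 to 6.67 at 72 h, without the beta-globin row, which spans 2 genes. Of 4 tested genes of this list, globin included, 3 were called lower at each time against 0 h, and 1 was called higher at 48 and 72 h, Pf4, a platelet chemokine at 5.66 and 5.09 FPKM at 72 h, against 2.57 and 2.63 FPKM at 0 h. The part of blood in the marker levels was not tested.

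Gene lists of endothelium and of tubular injury were also read beside the markers, and beside the 25.8%, 28.5% and 37.6% of all tested rows called higher at 24, 48 and 72 h. Of 9 tested endothelial genes 3 were called higher and 2 lower at 24 h, 4 higher and 2 lower at 48 h, and 8 higher at 72 h, and their summed level over 8 rows was 76.4 to 78.8 FPKM at 0 h, 89.4 to 98.9 at 24 h, 98.5 to 108 at 48 h and 161 to 167 at 72 h. Of 8 tested tubular injury genes 7 were called higher at 24 h and 8 at 48 and 72 h, and their summed level over 8 rows was 357 to 363 FPKM at 0 h, 840 to 864 at 24 h, 1661 to 1713 at 48 h and 3242 to 3353 at 72 h. The part of these cells in the marker levels was not tested.

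**Figure D5:**
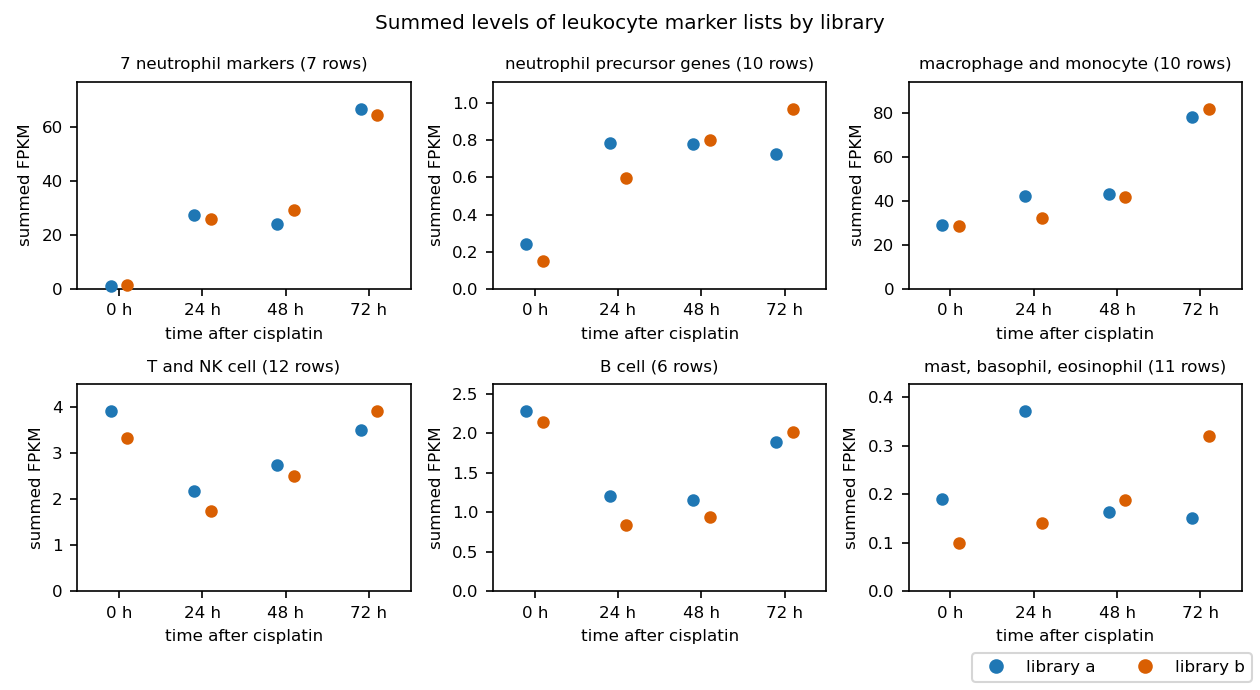
Summed FPKM (vertical axis, own scale in each panel) of 6 marker lists in each library against time after cisplatin, with a point for each of 2 libraries. The neutrophil markers go up to 64.3 and 66.7 FPKM and the macrophage list to 78.2 and 82.0 FPKM at 72 h, whereas the T and NK cell and B cell sums at 24 and 48 h are below those at 0 h.

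The deposited table of circular RNAs held 2163 circles, and 0 of them overlapped the row of a marker gene.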

How the data were processed

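The authors deposited linear RNA values as FPKM, 1 for each gene row and library, and the unit is stated per the file headers. The circRNA table, deposited by the authors as raw whole-number counts, served here only to look for circles over the markers, and its 8 columns with another measure were left out. The submitters' processing notes name Bowtie 0.12.2, TopHat2, Cufflinks and mm10. The circRNA caller and the strand setting were not given in the sources used here. Per the labels' protocols, Ribo-Zero removed ribosomal RNA, and the library kit is labelled as one for small RNA.

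Table columns are lettered a and b, whereas the labels number the replicates, so a column was placed in its time group and no further. Of 21874 rows 19742 matched a symbol. Rows were compared with RefSeq gene spans (tolerance 2000 bases), and 14055 kept to their own gene, those of all 7 markers among them. All 8 libraries entered 1 fit with limma 3.58.1 in R 4.3.3 on log2(FPKM + 1), with trend and robust options, 2-sided tests and Benjamini-Hochberg adjustment within each contrast. The fit was also run on simulated data. The changes placed there were larger than the smaller ones reported here for Csf3r, Mmp8, Mmp9 and Ngp, so that run does not cover those. Since an FPKM of exactly 0 may come from a failed estimate, no fold is given against a group listed at 0 in both libraries. The fold changes of Mmp8, Ngp and Il6 over 0 h include a 0 h library listed at 0.

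The markers, the lists and the tests were chosen with earlier results of these data known. Lists are given by counts and, for some, medians, with no set test. By rule the text names at most 4 genes of a list, those with the smallest adjusted p over the contrasts with 0 h. Rows that span a protein-coding gene without a row of its own were left out of this choice. Some of the genes listed at 0 in a library, not all of them, and genes most like a marker in profile are named as well. Alternatives were other pseudocounts, filters and scalings, a fit of 2 groups alone, a fit without trend, rows that keep to their own gene, and leaving out each library. A gene that the naming rule picks is not reported here.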

Additional observations from a re-analysis of the deposited data

Results flagged for a closer look

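The change over 0 h differed between 72 h and 24 h for each of the 5 tested markers, by the contrast of the 72 h and 24 h libraries in the limma fit. The log2 difference was 1.19 for S100a8, 0.92 for S100a9 and 1.65 for Retnlg (limma adjusted p = 5.51e-05, 5.99e-05 and 3.35e-05). It was 0.99 for Csf3r and 0.94 for Mmp8 (limma adjusted p = 4.26e-05 and 7.91e-05). Such calls were common, since 37.7% of all tested rows were called higher in the same contrast. The changes over 0 h share the same 0 h libraries. A marker was flagged because it passed the threshold in this contrast. Csf3r and Mmp8 entered the test through the 72 h libraries alone, so their differences carry that selection.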

How the results depend on the processing

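For the 5 tested markers in 6 contrasts, 17 alternatives gave 510 values, of which 493 kept the direction and the side of the threshold, 10 lost the call, 2 gained one and 5 changed sign. The calls at 72 h against 0, 24 and 48 h held for all 5 markers under every alternative. With quantile normalisation 3 markers were called at 48 h against 0 h, the 24 h value of Csf3r was -0.10 and the 48 h against 24 h value of Mmp8 was -0.029. Csf3r at 24 h was called with each library set to the same median, at 0.28 (limma adjusted p = 0.0408). Against 24 h, no marker was called at 48 h without a filter on low FPKM or with the 2 groups alone (0 and 0), and leaving out a library gave 0 to 1 calls. In that contrast, leaving out a library gave S100a8 values of -0.25 to 0.075 and Mmp8 values of -0.017 to 0.15. With rows that keep to their own gene, 20 of the 31 other neutrophil genes could be tested, and 9 of these were called higher at 24 h and 15 at 48 h. Where a library was left out, the lone sample of its group was assumed to vary like the other groups. The cause of the changes by scaling was not tested. No paired analysis was possible because the columns carry letters and not the replicate numbers of the labels. The unknown depth limits what can be said of Ngp, Ly6g and the precursor genes.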
